A study of Mus musculus with 16 samples.

Results

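The genes described here were lower in colons carrying either of a pair of Bifidobacterium strains than in germ-free colons. The 66 members were taken from a gene-level array table of 1793 genes. A gene entered when its mean log2 value in both strain groups was at least 0.4 below the germ-free mean and the strain means lay within 0.3 of each other. Solute carrier, Zfp zinc finger and olfactory receptor genes and 7 named genes of hormone, growth and glutathione metabolism were left out by symbol. This removed 15 genes that otherwise met the rule. The same rule turned to higher values gave 113 genes. The members were chosen on UCC2003, TadA mutant and GF values. Their differences between those groups are therefore a description, and nothing is read from tests of them.

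Colon RNA came from Swiss Webster mice, an outbred stock, all raised germ-free. The groups were mice monocolonised with Bifidobacterium UCC2003 (UCC2003), mice monocolonised with UCC2003 carrying a mutant of the bacterial gene TadA (TadA mutant), mice left germ-free (GF), and mice re-conventionalised from the germ-free state (CONV), with 4 arrays in each. Although 5 re-conventionalised animals are stated, 4 arrays were analysed here. Age and sex are not given in the sources used here. Arrays of a group are labelled as biological replicates. Precision is limited by the 4 arrays of a group. Whole colon was used, so fewer cells of a type and less RNA per cell cannot be told apart.

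A germ-free animal has no bacteria in its gut, and the lymphoid tissue of its intestinal wall is known to be small, with few germinal centres and plasma cells. Bifidobacterium is an early, mostly saccharolytic colonist, and TadA is the ATPase of the machinery that assembles a tight adherence pilus. The colon wall holds epithelium, muscle, nerves and immune cells, and a lower value of a gene in whole tissue can come from any of them.

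The gene-level table held 2 genes of the colonocyte list and 2 of the goblet list. Guca2a, the guanylin precursor of surface colonocytes, ran from 11.54 to 12.53 log2 units in the 16 columns. Agr2, a goblet cell disulfide isomerase, ran from 11.47 to 11.91, so both were strong in every column. The other listed colonocyte gene, Cyp2c55, ran from 4.58 to 7.44, and the other goblet gene, Retnlb, from 6.24 to 11.49. Pancreatic transcripts were high in part of every group. Cpa1, a pancreatic carboxypeptidase, exceeded 9 log2 units in 3 of 4 GF arrays, 2 UCC2003 arrays, 1 TadA mutant array and 2 CONV arrays, with group means of 11.07, 8.98, 7.58 and 8.57. The gene-level table holds 0 of the 32 pancreas acinar genes listed for this work, and its columns carry no replicate number. These arrays could therefore not be matched to the table's columns by label, and no match by values was made. The part of pancreatic tissue in the values below was not tested in that table.

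The members were mostly weak and little-studied transcripts. By the class column of the deposited table, 31 were protein coding (47.0% of members against 77.1% of the table), 16 were pseudogenes (24.2% against 9.87%), 12 were long non-coding RNAs (18.2% against 11.5%), 3 were miRNA genes, 3 were antigen receptor segments and 1 was listed as a nonsense-mediated decay transcript. Predicted-gene names or names of the Rik or AI type were carried by 40 of them. A current RefSeq entry was found for 50, of which 5 had a newer symbol. Members of repeated families, among them the pseudogenes, the receptor segments and the H2A-like genes Gm16501 (now H2al2b) and Gm5382 (now H2al1n), can share probes with near-identical copies, and their identity is uncertain.

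Their signal was low. The mean over the 16 columns had a median of 4.51 log2 units in the members and 5.98 in the whole table, and 83.3% of members lay under 6 against 50.5% of the table. Levels of different genes depend on their probes, so this describes the signal and not the amount of RNA. The SD within groups had a median of 0.32 log2 units in the members and 0.21 in the table. Genes that vary more pass a rule of fixed difference more easily. How far the low signal and the classes above come with the rule was not tested. Members with a mean of 6 or more numbered 11. Of the members without predicted names, Ccbl1, Ikzf4, Naalad2, Igkv3-9 and A1bg were highest in GF.

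**Figure D1:**
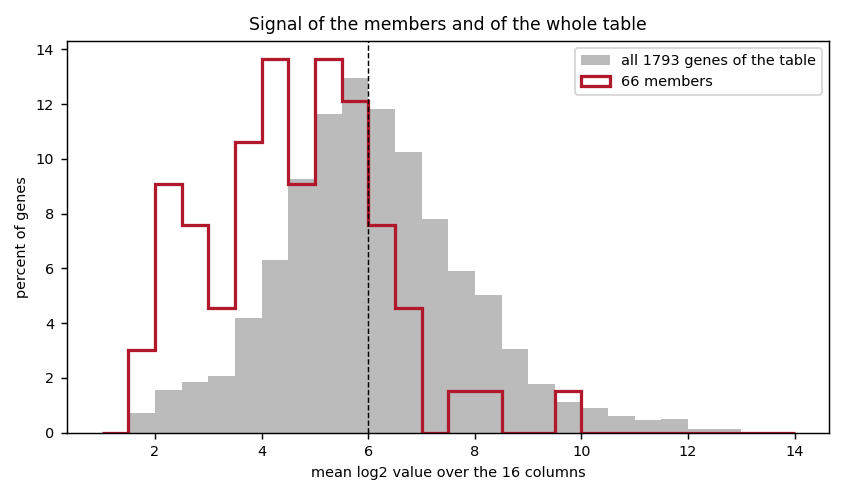
Distribution of the mean log2 value over the 16 columns, as percent of genes in bins of log2 units, for all 1793 genes (grey) and the 66 members (red line). The dashed line marks 6 log2 units. Members sit to the left, with a median of 4.51 against 5.98.

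The strain values ran close to each other, as the rule required. The mean difference from GF over both strains ranged from 0.43 to 1.34 log2 units with a median of 0.61, which is 1.53-fold, and 8 members were lower by 1 or more. The median difference was -0.63 for UCC2003 minus GF and -0.63 for TadA mutant minus GF, against -0.10 and -0.01 over all 1793 genes. The UCC2003 mean was the lower strain mean in 35 members and the TadA mutant mean in 31. In 23 members every one of the 8 strain columns lay below every GF column, where 4.07% of the table did, and in the other 43 the groups overlapped. In limma's moderated test, with Benjamini-Hochberg adjustment over 35860 tests, 0 members were called lower in UCC2003, where 0.112% of the table was called, and 0 in TadA mutant, where 0% was. At an unadjusted p under 0.05 these counts were 64 (29.2% of the table) and 61 (19.7% of the table). Nothing is read from the count of separated members, or from the adjusted or the unadjusted counts, because the rule used these contrasts.

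**Figure D2:**
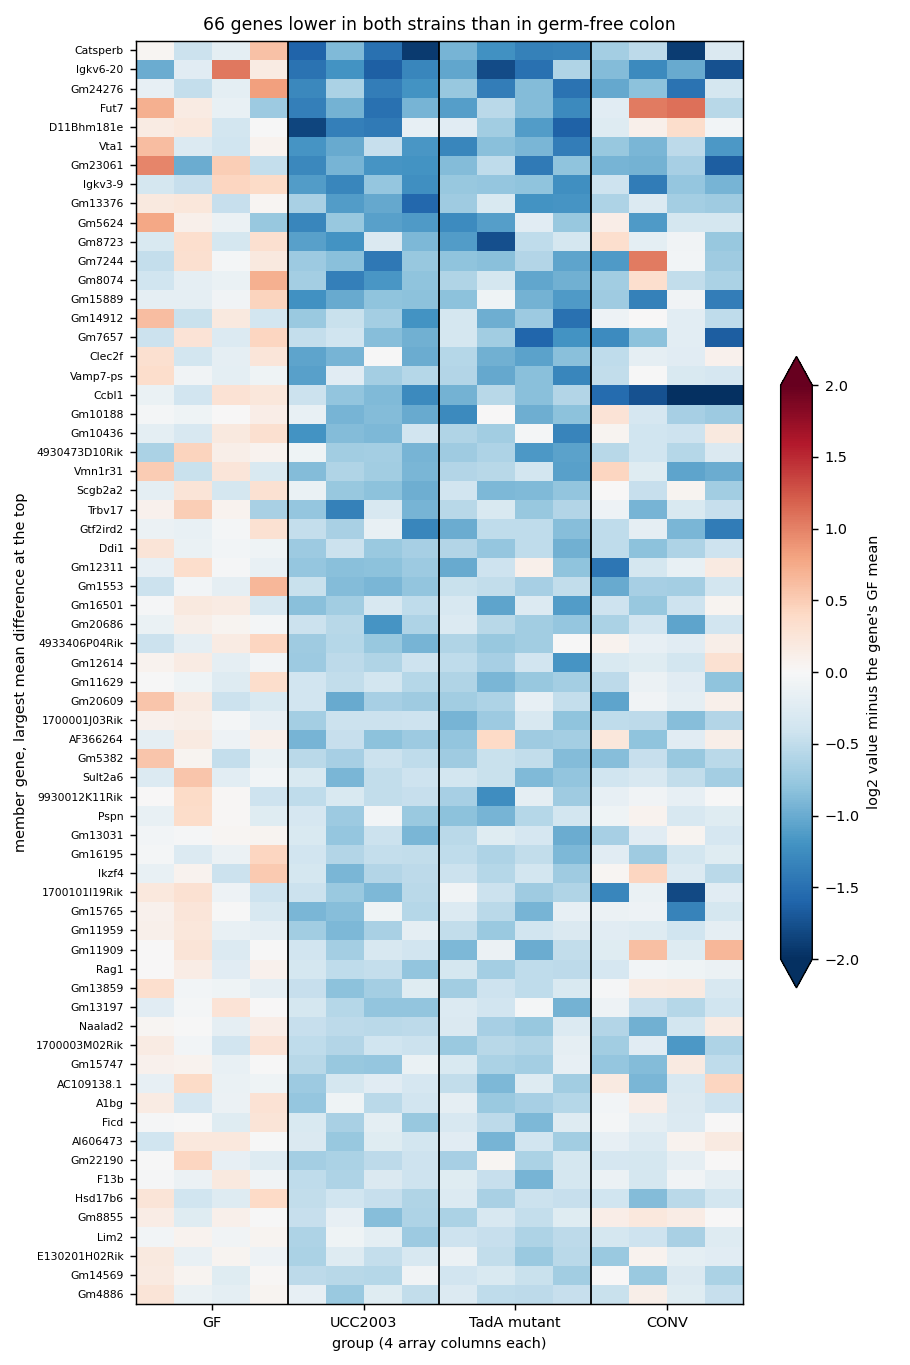
Each row is a member gene and each column an array column, grouped as GF, UCC2003, TadA mutant and CONV. Colour gives the log2 value minus the gene's GF mean, limited to 2 units either way. Both strain blocks are mostly blue because the rule chose them so. The CONV block is mixed, and Ccbl1 is the only row whose 4 CONV columns lie below all 8 strain columns.

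Genes just inside the limit of 0.4 included Lim2, a lens fibre membrane protein, whose smaller strain difference was 0.41 log2 units, and A1bg, a plasma glycoprotein, at 0.45. Just outside were Arpp21, a phosphoprotein, at 0.399 and the clone-named AL670236.1 at 0.398. For the distance between strains, Vamp7-ps (0.296) and Trbv17 (0.290) were inside and Acot4, an acyl-CoA thioesterase, at 0.332 and Shox2, a homeobox gene, at 0.378 were outside.

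Among the enzymes, Ccbl1 had the strongest signal of all members and stood apart in CONV. Ccbl1 (now Kyat1, on chromosome 2) encodes kynurenine aminotransferase 1, which turns the tryptophan metabolite kynurenine into kynurenic acid and also cleaves cysteine conjugates. Its 4 GF columns were 10.53, 10.27, 10.94 and 10.87 log2 units. The UCC2003 columns were 10.23, 9.87, 9.77 and 9.38, and those of TadA mutant 9.71, 10.10, 9.82 and 10.07. The CONV columns were 9.11, 8.91, 8.48 and 7.25. Every strain column was below every GF column, and every CONV column was below every strain column, an order against the strains that 3.35% of the table and 1 member showed. Differences from GF were -0.84 (SE 0.31) in UCC2003 and -0.73 (SE 0.31) in TadA mutant. CONV minus GF was -2.21 (SE 0.31), or 4.64-fold lower, with an adjusted p of 0.00356 by limma over 35860 tests. This call was lost when the fit held the compared groups alone (adjusted p = 0.128 by limma). The SD of Ccbl1 was 0.84 in CONV, 0.31 in GF, 0.35 in UCC2003 and 0.19 in TadA mutant. The main fit takes 1 spread over all groups, so its SE of 0.31 also rests on the less variable strain columns. The GF columns had been chosen as high, so neither p-value is independent of the rule. CONV was also below UCC2003 by -1.37 (adjusted p = 0.119 by limma) and below TadA mutant by -1.48 (adjusted p = 0.170), neither of which passed. One other kynurenine pathway gene was found in the table, after its values were seen: Ido1, the inducible enzyme that opens tryptophan, with means of 5.33 in GF, 4.92 in UCC2003, 5.91 in the TadA mutant and 6.31 in CONV.

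Naalad2 encodes a peptidase that splits N-acetylaspartylglutamate. GF columns ran from 7.69 to 8.01, UCC2003 columns from 7.33 to 7.42, TadA mutant columns from 7.12 to 7.60 and CONV columns from 6.91 to 8.03. The strain columns did not reach the GF range, whereas CONV spanned it, and CONV minus GF was -0.44 (SE 0.18). Sult2a6, of the sulfotransferase family that acts on steroids and bile acids, had means of 4.91 in GF, 4.38 in UCC2003, 4.29 in the TadA mutant and 4.43 in CONV. Hsd17b6, a steroid dehydrogenase, gave 4.89, 4.40, 4.44 and 4.35 in the same order. All CONV columns of Sult2a6 lay below all its GF columns. Ficd, which attaches AMP to the chaperone BiP in the endoplasmic reticulum, was at 6.50 in GF, 6.02 in UCC2003, 5.99 in the TadA mutant and 6.38 in CONV.

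Antigen receptor segments were 3 of the members: the kappa light chain V genes Igkv6-20 and Igkv3-9 and the T cell receptor beta gene Trbv17, all on chromosome 6. V segments encode the variable part of antibodies and T cell receptors and form a receptor only in lymphocytes that have rearranged them. For Igkv6-20 the GF columns were 3.91, 4.68, 5.96 and 5.07, the UCC2003 columns ran from 3.27 to 3.71, the TadA mutant columns from 3.12 to 4.31 and the CONV columns from 3.16 to 4.03. The lowest GF column lay above every UCC2003 column and inside the TadA mutant and CONV ranges. Igkv3-9 was stronger, with GF columns of 7.03, 6.92, 7.82 and 7.78, UCC2003 columns from 6.08 to 6.62, TadA mutant columns from 6.16 to 6.63 and CONV columns from 6.0 to 6.97. Strain columns stayed below every GF column, and 1 CONV column entered the GF range. CONV minus GF was -1.23 (SE 0.34) for Igkv6-20 (adjusted p = 0.520 by limma) and -0.88 (SE 0.23) for Igkv3-9 (adjusted p = 0.360), so neither passed. Trbv17 had means of 5.34 in GF, 4.49 in UCC2003, 4.78 in the TadA mutant and 4.89 in CONV. Within groups, the values of both kappa genes correlated at 0.35 over the 16 columns minus group means, and Trbv17 with them at 0.15 and -0.16.

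The table held 8 further V segments, gathered after their values were seen. Of these, 6 had means below GF in both strains, as did 40.4% of the 1727 genes that were not members, a count that carries no test. Igkv6-29 missed the members only through the distance between strains, at 4.96 in GF, 3.14 in UCC2003, 3.74 in the TadA mutant and 3.82 in CONV. Ighv5-15 and Trav5-4 were below GF in UCC2003 and above it in TadA mutant. Those genes shared by most B cells that the table holds lay on the other side. Of the 18 genes of the B cell list it holds 9, and all 9 had means above GF in both strains. Their median differences from GF were 0.77 in UCC2003, 0.88 in the TadA mutant and 0.95 in CONV. In these comparisons with GF, 0 of them were called. The table holds only genes that the authors' deposited test separated among UCC2003, TadA mutant and GF. Listed genes that did not differ could therefore not appear, and this count carries no test and does not describe the whole list. Ighm, the constant region of IgM, was at 5.86 in GF, 7.12 in UCC2003, 6.93 in the TadA mutant and 6.91 in CONV.

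Other lymphocyte and leukocyte genes among the members were Rag1, Ikzf4 and Fut7. Rag1 encodes the recombinase that joins V segments in developing lymphocytes. Its GF columns were 4.73, 4.88, 4.50 and 4.81, its 8 strain columns ran from 3.95 to 4.38, and its CONV columns were 4.40, 4.67, 4.64 and 4.62. Every CONV column lay above every strain column, which 4.52% of the table and 4 members did (Rag1, Gm12614, 9930012K11Rik and Gm8855). CONV minus UCC2003 was 0.38 (SE 0.12, adjusted p = 0.551 by limma) and CONV minus GF was -0.15 (SE 0.12).

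Ikzf4 encodes Eos, an Ikaros family zinc finger protein known from regulatory T cells. GF columns were 8.21, 8.43, 7.92 and 8.88, strain columns ran from 7.45 to 8.01 and CONV columns from 7.82 to 8.78. The groups overlapped, and the CONV mean of 8.27 was near the GF mean of 8.36. Fut7, the fucosyltransferase that completes the selectin ligand sialyl Lewis x on leukocytes, was very dim. Its GF columns were 3.47, 2.93, 2.61 and 2.04, the UCC2003 columns ran from 1.28 to 1.84, the TadA mutant columns from 1.49 to 2.22, and the CONV columns were 2.54, 3.79, 3.86 and 2.21. CONV minus UCC2003 was 1.52 (SE 0.35, adjusted p = 0.146 by limma) and CONV minus TadA mutant 1.28 (adjusted p = 0.612), neither of which passed.

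**Figure D3:**
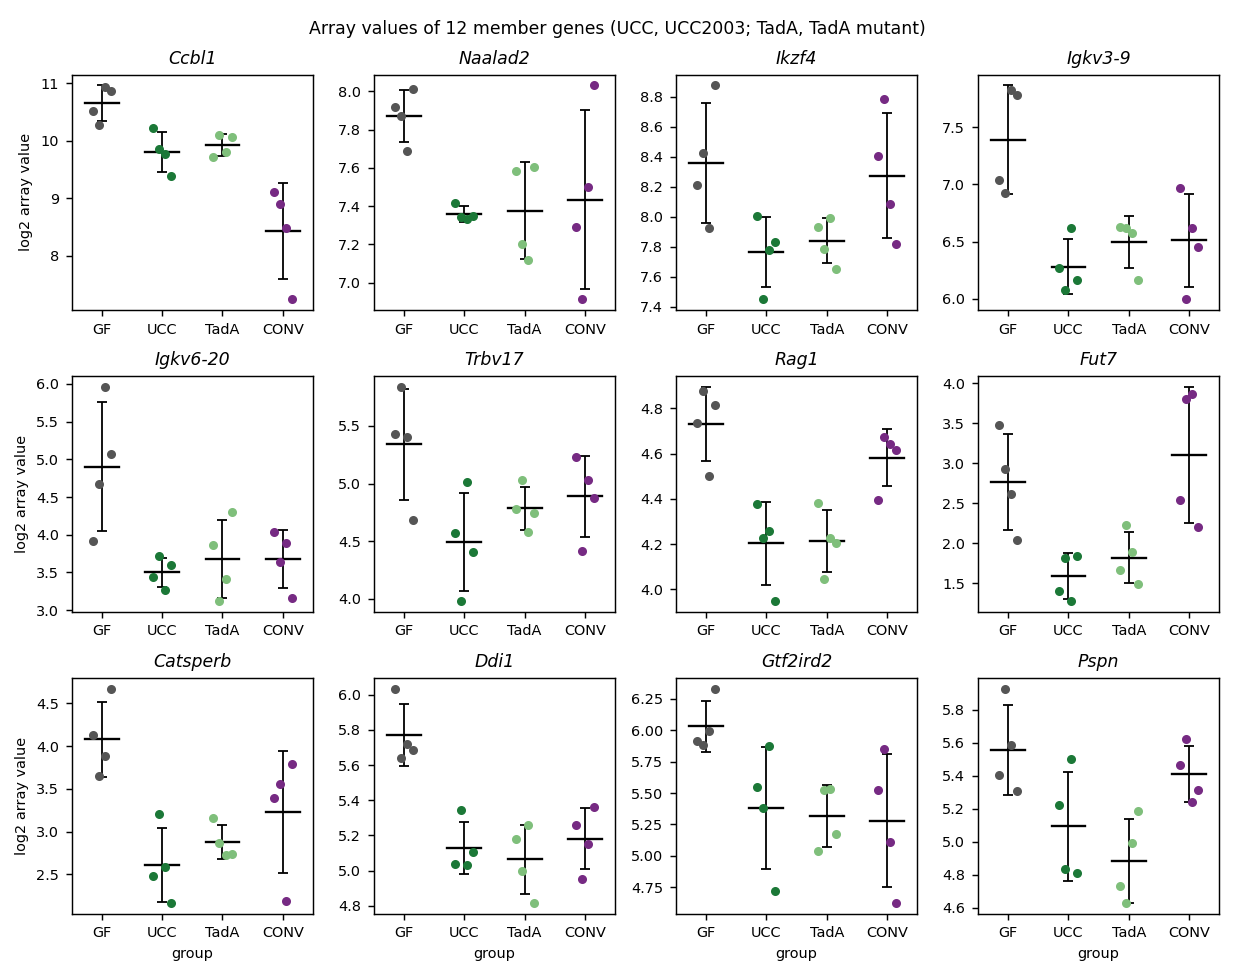
Log2 array values of 12 members in GF, UCC2003, TadA mutant and CONV. Points are array columns, the bar is the mean and the whisker the SD (n = 4), and each panel has its own axis that does not start at 0. CONV lies below the strains in Ccbl1, with the strains in Igkv3-9, Igkv6-20, Ddi1 and Gtf2ird2, and nearer GF in Rag1, Ikzf4, Fut7 and Pspn.

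Genes known from the germ line or the sense organs came next. Catsperb, an auxiliary subunit of the sperm calcium channel, had the largest difference of all members. Its GF columns were 4.13, 3.65, 3.88 and 4.67, its UCC2003 columns 2.48, 3.20, 2.58 and 2.17, and its TadA mutant columns 3.16, 2.87, 2.73 and 2.74. CONV columns ran from 2.19 to 3.79 and overlapped both. Differences from GF were -1.47 in UCC2003, -1.21 in the TadA mutant and -0.85 in CONV, each with an SE of 0.31. Ddi1, an aspartic protease homologue best known from testis, had GF columns from 5.64 to 6.03, and its 12 other columns ran from 4.82 to 5.36. No column of those 3 groups reached the GF range. CONV minus GF was -0.59 (SE 0.13, adjusted p = 0.117 by limma) and did not pass. Vmn1r31, a vomeronasal pheromone receptor, had means of 2.62 in GF, 1.84 in UCC2003, 1.97 in the TadA mutant and 2.15 in CONV. Clec2f, a C-type lectin-like gene that the table classes as a pseudogene, gave 3.28, 2.54, 2.42 and 3.07 in that order. The chemoreceptor list, which holds neither Vmn1r31 nor olfactory receptor genes, had 2 genes in the table, and 0 were members. The 15 genes that met the rule but were left out by symbol are not broken down by family here.

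Vta1, a cofactor of the Vps4 ATPase in endosomal sorting, was read at 2.60 in GF, 1.65 in UCC2003, 1.50 in the TadA mutant and 1.77 in CONV, among the weakest signals of the table. All its strain columns and all its CONV columns lay below its GF columns. Gtf2ird2, a TFII-I family transcription regulator, also had every strain and CONV column below its GF columns, but the ranges nearly touched. The lowest GF column was 5.886, the highest UCC2003 column 5.875 and the highest CONV column 5.848. Gtf2ird2 means were 6.03 in GF, 5.38 in UCC2003, 5.32 in the TadA mutant and 5.28 in CONV. Its CONV minus GF difference was -0.75 (SE 0.25), which did not pass (adjusted p = 1 by limma). Scgb2a2, a secretoglobin, was at 4.82, 4.15, 4.08 and 4.54 in the same order, and F13b, a subunit of coagulation factor XIII, at 4.22, 3.76, 3.72 and 4.03. The cDNA-named AF366264 gave 4.53, 3.79, 4.08 and 4.36, with 1 TadA mutant column at 4.93, above every GF column.

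The predicted miRNA genes Gm24276 and Gm23061 were very dim, at 2.97 and 3.62 in GF, 1.84 and 2.47 in UCC2003, 1.84 and 2.72 in TadA mutant, and 2.05 and 2.57 in CONV. The third, Gm22190, was at 7.18 in GF, 6.62 in UCC2003, 6.78 in the TadA mutant and 6.97 in CONV. Among the 12 long non-coding RNAs the strains lay below GF by a median of 0.58 log2 units and at most by 0.97, in Gm13376. Among the 16 pseudogenes these were 0.64 and 1.06, the latter in D11Bhm181e, whose columns were 4.87, 4.92, 4.33 and 4.7 in GF and 4.45, 4.81, 5.06 and 4.65 in CONV. Its UCC2003 columns ran from 2.87 to 4.55 and its TadA mutant columns from 3.08 to 4.48, so a strain column of each reached the GF range while CONV lay across it.

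Pspn encodes persephin, a neurotrophic factor of the GDNF family, and was the only member that could also be read from a transcript cluster carrying its symbol alone. In the gene-level table it had means of 5.56 in GF, 5.09 in UCC2003, 4.88 in the TadA mutant and 5.41 in CONV. The cluster, from the same arrays, gave 5.50 ± 0.24, 4.96 ± 0.38, 4.75 ± 0.16 and 5.26 ± 0.19 (SD, n = 4). Arrays are numbered there, so Pspn could be set beside Cpa1. Arrays with Cpa1 over 9 had Pspn from 5.34 to 5.85 in GF (3 arrays), 4.98 and 5.49 in UCC2003, 4.67 in TadA mutant, and 5.02 and 5.47 in CONV. In the arrays with lower Cpa1, Pspn was 5.39 in the remaining GF array, 4.64 and 4.72 in UCC2003, 4.59 to 4.96 in TadA mutant, and 5.20 and 5.35 in CONV. The TadA mutant array with Pspn at 4.96 had Cpa1 at 7.49, the highest Cpa1 of this lower set. In both sets the GF value or mean was the highest of the groups, an order partly given by the rule, which chose Pspn as high in GF. Within the first set, 1 UCC2003 and 1 CONV array lay inside the GF range. With 1 to 3 arrays of a group in each set, nothing is read from this order, and the part of pancreatic tissue was not tested.

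The re-conventionalised mice gave values that the rule did not use, although the GF columns they are compared with had been chosen as high. In CONV, 62 of 66 members had a mean below GF, where 51.4% of the table did, and the median difference was -0.38 against -0.01 over the table. In the 11 members with a mean of log2 6 or more the median was -0.21. The exceptions were Fut7 (0.34) and the pseudogenes Gm11909 (0.19), Gm8855 (0.12) and D11Bhm181e (0.04). Ccbl1 alone was called lower, where 0.725% of the table was, and 0 members were called higher, where 2.73% was. At an unadjusted p under 0.05, 28 members were lower (42.4%, against 11.9% of the table) and 0 higher (16.1% of the table). Adjusted over the 1793 genes of the table alone, 16 members were called lower, where 4.52% of the table was, and 0 higher, where 9.76% was. In 9 members every CONV column lay below every GF column, 13.6% against 4.41% of the table. Since selection on high GF columns pushes these shares in the same direction, they cannot be read as independent of the rule.

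Set against the strain columns, which had been chosen as low, CONV was higher in 57 members against UCC2003 (59.2% of the table) and in 53 against TadA mutant (51.9% of the table), with medians of 0.30 and 0.26. By limma 0 members were called higher in either comparison, where 2.62% and 1.00% of the table were, and 0 lower, where 1.51% and 0.279% were. Unadjusted p under 0.05 gave 20 members higher in each (24% of the table against UCC2003, 15.7% against TadA mutant) and 1 lower in each (16.6% and 13.4%). Adjusted over the table alone, 7 were higher (15.1% of the table) and 1 lower (10.5%) against UCC2003, and 5 higher (6.53%) and 1 lower (4.74%) against TadA mutant. Selection again favours that direction. On a scale from the strain mean to the GF mean, CONV lay nearer the strains in 37 members and nearer GF in 29. It was between the higher strain mean and GF in 47, below both strain means in 7 and at or above GF in 4. By class, the median CONV minus GF was -0.42 in protein coding members, -0.40 in long non-coding RNAs, -0.21 in pseudogenes, -0.88 in the 3 receptor segments and -0.92 in the 3 miRNA genes.

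**Figure D4:**
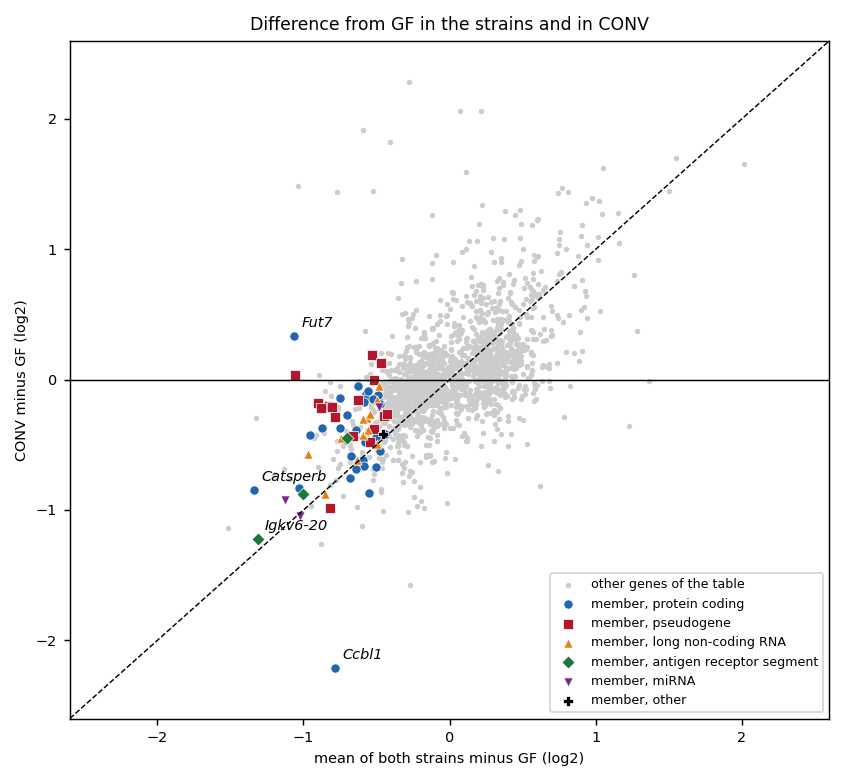
Mean of both strains minus GF (horizontal, log2) against CONV minus GF (vertical, log2) for all genes of the table (grey, 5 outside the axes) and the members by class. The dashed line marks equal differences and both axes share the GF columns, so points tend to spread along it without any shared response. Members at the dashed line, such as Igkv6-20, had CONV at the strain level, Fut7 lay above 0 and Ccbl1 far below the line.

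Inside the groups, pairs of members did not correlate more than pairs of all table genes. Over 2145 pairs of members, the correlation of values minus group means across the 16 columns had a median of 0.016, with the 10th and 90th percentiles at -0.37 and 0.39. All pairs of table genes gave a median of 0.024 and percentiles of -0.41 and 0.46. A median over all pairs can miss smaller sets that move together, and 83.3% of members had a mean under 6 log2 units. Shared movement of such sets was not tested. No single GF column was the highest throughout: the 4 columns were highest in 17, 24, 5 and 20 members. Members lay on 18 chromosomes, most often on chromosome 10 (8 members, 12.1%, where 3.57% of the table lies) and chromosome 6 (7 members, 10.6% against 5.35%), counts that carry no test. Of the 23 gene lists of cell types and pathways used here, 74 genes were in the table and 0 were members. Members are 66 of the 1793 genes of the table, so few of the 74 would be members in any case. Nothing is read from this count.

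Promoters were matched by symbol for 27 members, which have 30 promoter windows in the RefSeq table for GRCm38.p6, each running from 250 bases before to 50 after a transcription start. The windows of Ccbl1, called in CONV, of Catsperb, the largest difference, and of the leukocyte genes Fut7 and Rag1 are printed 5′ to 3′, with capitals marking the motifs CCAAT and GGGCGG on either strand. They lie at chr2:30205798-30206097 (minus strand), chr12:101404423-101404722 (plus), chr2:25422992-25423291 (plus, the first of 2 listed for Fut7) and chr2:101649483-101649782 (minus).
Kyat1 (Ccbl1): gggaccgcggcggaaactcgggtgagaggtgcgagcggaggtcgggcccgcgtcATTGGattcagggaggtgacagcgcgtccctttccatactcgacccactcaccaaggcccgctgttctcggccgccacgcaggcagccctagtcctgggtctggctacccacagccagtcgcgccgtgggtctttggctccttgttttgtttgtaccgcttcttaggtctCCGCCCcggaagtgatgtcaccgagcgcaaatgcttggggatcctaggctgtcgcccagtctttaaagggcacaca
Catsperb: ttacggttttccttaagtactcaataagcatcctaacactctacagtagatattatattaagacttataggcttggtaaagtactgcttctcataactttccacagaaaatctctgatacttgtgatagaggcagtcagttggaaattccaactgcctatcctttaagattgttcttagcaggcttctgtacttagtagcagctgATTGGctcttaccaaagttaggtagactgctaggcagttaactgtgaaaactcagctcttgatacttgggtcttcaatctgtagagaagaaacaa
Fut7: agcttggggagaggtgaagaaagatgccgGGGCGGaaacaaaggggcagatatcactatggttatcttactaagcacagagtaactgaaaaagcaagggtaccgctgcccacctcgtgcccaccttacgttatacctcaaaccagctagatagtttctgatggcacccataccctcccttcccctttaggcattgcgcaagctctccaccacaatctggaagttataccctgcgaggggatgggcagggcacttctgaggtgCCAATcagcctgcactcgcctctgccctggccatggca
Rag1: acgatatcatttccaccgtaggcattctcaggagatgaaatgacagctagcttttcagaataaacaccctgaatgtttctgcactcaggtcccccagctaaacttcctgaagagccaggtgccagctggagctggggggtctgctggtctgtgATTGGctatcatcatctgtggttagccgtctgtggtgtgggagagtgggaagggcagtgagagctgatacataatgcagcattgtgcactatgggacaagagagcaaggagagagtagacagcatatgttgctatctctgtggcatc

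Each of these windows held CCAAT or its reverse complement ATTGG, and those of Ccbl1 and Fut7 also held GGGCGG or CCGCCC. Across member windows, CCAAT was present on either strand in 14 of 30 (46.7%, against 37.4% of all 32851 windows) and GGGCGG in 4 (13.3% against 35.7%). TATAAA was in 5 (16.7% against 13.6%), the E-box CACGTG in 2 (6.67% against 7.15%) and the cAMP response element TGACGTCA in 0 (against 1.79%). No match of these overlapped another in the printed windows. These are letter matches in 1 window per start and describe no binding.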

How the data were processed

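RMA, Affymetrix Expression Console 1.1, Partek and the mouse build mm9 are named in the submitters' processing notes. The deposited log2 values cover 23332 transcript clusters by replicate and, in a gene-level table, 1793 genes by group. The authors' deposited p-value of an ANOVA over UCC2003, TadA mutant and GF was under 0.05 for every gene of that table, and ran from 0.000793 to 0.0494 in the members. Groups came from the treatment labels.

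Group coefficients were fitted to all 1793 genes and 16 columns with limma 3.58.1 (R 4.3.3, moderated test, two-sided). Benjamini-Hochberg adjustment ran over 35860 tests, the number of genes from which a pass rate of 0.05 leaves 1793, with a threshold of 0.05. The 3 comparisons with GF share its columns. The fit was tested on simulated data with known changes. No detection p-value was used.

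Members and lists were chosen with earlier results of these data known. Among members without predicted names, those named are the 15 largest differences, the 5 highest GF levels, up to 5 smallest p-values of CONV against GF in each direction (5 lower and the 2 that were higher), and the 4 either side of each limit, of which some examples are given. Others were picked after their values were seen: Rag1, Ficd, Sult2a6, Hsd17b6, F13b, Pspn, and those listed as non-overlapping or as exceptions.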

Additional observations from a re-analysis of the deposited data

Results flagged for a closer look

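In 104 groups of 4 columns, over the 26 members without predicted names, 4 groups held a column set apart from the rest, and chance alone gives about 1 in 20, or 5.2. The gap to the nearest column was compared with the group's range against Dixon's critical value.

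The lowest TadA mutant column of Igkv3-9, at 6.16 log2 units with the others from 6.58 to 6.63, gave 0.898. In UCC2003, the highest column of Clec2f was 3.28 with the others from 2.23 to 2.35, a ratio of 0.879. AF366264 had 1 TadA mutant column at 4.93 and the others from 3.74 to 3.85, a ratio of 0.904. The highest GF column of the clone-named non-coding RNA AC109138.1 was 6.0, above the others at 5.46 to 5.53, with a ratio of 0.871. Array labels were not matched to these columns, and the reason was not tested.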

How the results depend on the processing

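Adjusting over the 1793 genes of the table alone called 16 members in CONV against GF, all lower, 8 in CONV against UCC2003 (7 higher, 1 lower) and 6 in CONV against TadA mutant (5 higher, 1 lower), since fewer tests are counted. Ccbl1 was then called against UCC2003 (adjusted p = 0.00595) and TadA mutant (adjusted p = 0.00851) too. Centring each column on its median called 2 in CONV against GF, 1700001J03Rik with Ccbl1. Fitting only the compared groups called 0. That fit has fewer samples behind the spread and leaves out the strain columns, in which Ccbl1 varied less than in CONV. Leaving out single columns left the count in CONV against GF at 1 to 1, always Ccbl1, and that against TadA mutant at 0 to 0. The count against UCC2003 was then 0 to 1 (Gm8855 without UCC2003 column 2, D11Bhm181e without UCC2003 column 4, Fut7 without CONV column 4). A trended robust prior and a filter at log2 6 moved none of these 3 counts. The rule gave 138 genes with a limit of 0.3 and 38 with 0.5, and 59 to 84 when single columns were left out, of which 49 to 62 were among the 66. The median CONV minus GF difference was -0.21 in the 11 members with a mean of log2 6 or more, and -0.40 to -0.33 with single columns left out. Among the 23332 clusters, 440 were called in CONV against GF, 293 with the replicate number as a block and 241 to 454 with single arrays left out; the block changed no call of Pspn, and the cause was not tested. For this pairing, replicate numbers were a number only: 24 same-numbered pairs correlated from -0.31 to 0.21 in their deviations from group means, 4 of them above 0.1. The pancreas covariate was not run for the gene-level table, which holds no gene of that list. Signals under log2 6, most of the members, limit what these arrays resolve.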
